A study of Homo sapiens with 6 samples.

Results

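The human mitochondrial genome encodes 37 genes, and each of the 37 has a row among the 54261 gene rows of the count table: 13 mRNA genes, 2 rRNA genes and 22 tRNA genes. They were chosen by symbol and by their place on the mitochondrial chromosome in the RefSeq table. The symbol pattern alone matched 39 rows, and 2 of these, TRNP1 on chromosome 1 and TRNT1 on chromosome 3, are nuclear protein-coding genes that were not counted as mitochondrial. The study compared 7R, a sunitinib-resistant line of 786-O cells, with control 786-O cells, each sequenced from total RNA as 3 libraries. 786-O was derived from a human clear-cell renal carcinoma and lacks functional VHL, and sunitinib blocks receptor tyrosine kinases such as those for VEGF and PDGF. Drug exposure at harvest and the clonality of 7R are not stated in the labels. Nothing there ties the 3 libraries to separate cultures either, and p-values therefore reflect library-to-library spread that may be technical.

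The resistant libraries held 37919629 to 38131634 counts and the control libraries 48264905 to 52221491. A count of 0 allows up to 3 counts, or 0.0574 to 0.0791 CPM (counts rescaled so that all libraries have an equal total), for counting error only. The 8 renal carcinoma markers summed to 3275 to 4191 CPM in the resistant and 12330 to 13520 CPM in the control libraries. Most of that sum was VIM, the intermediate filament vimentin (2184 to 2789 CPM in resistant and 9524 to 10321 CPM in control libraries), and KRT8, a keratin (356 to 525 CPM in resistant and 1480 to 1709 CPM in control libraries). PAX8, a renal lineage factor, stood at 397 to 414 CPM in the resistant and 492 to 584 CPM in the control libraries. PAX2, KRT18 and EPAS1 were also lower in each resistant than in each control library. NDUFA4L2 was low in both lines, with 0.416 to 0.841 CPM in resistant and 1.17 to 1.34 CPM in control libraries. LOX overlapped, with 0.856 to 1.77 CPM in resistant and 0.658 to 1.01 CPM in control libraries. The extraction text names a brain region, but OLIG2, an oligodendrocyte factor, had 0 counts in every library and GFAP, an astrocyte filament, reached at most 0.184 CPM. The 10 brain markers summed to 53.1 to 60.3 CPM in the resistant and 32.7 to 35.6 CPM in the control libraries, with 2 of them at 0 in each resistant and 4 in each control library. MBP, a myelin protein, had 37.6 to 41.2 CPM in resistant and 22.5 to 27.3 CPM in control libraries, and SNAP25, a synaptic protein, had 11.1 to 14.4 CPM in resistant and 2.97 to 3.84 CPM in control libraries. SYT1, of synaptic vesicles, reached 2.71 CPM in resistant and 0.552 CPM in control libraries, and AQP4, a water channel, reached 0.40 CPM in resistant libraries and had 0 counts in control libraries. GAD1 went the other way, with 1.57 to 2.10 CPM in resistant and 3.25 to 5.78 CPM in control libraries. RBFOX3 overlapped, with 0.607 to 1.15 CPM in resistant and 0.484 to 0.772 CPM in control libraries. The part of these markers in the results below was not tested. Apart from the floor of 0.0574 to 0.0791 CPM, levels above and below are CPM after TMM scaling, which sets the bulk of genes equal between libraries. Compared with equal totals, the TMM factors (1.12 to 1.14 in resistant, 0.867 to 0.913 in control libraries) lower resistant and raise control levels. A gap as narrow as that of PAX8 therefore depends on the scaling. Each fold change divides resistant by control. Tests used edgeR's quasi-likelihood method with p-values adjusted over all 16642 genes tested.

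Mitochondrial DNA is transcribed from both strands by a dedicated RNA polymerase, POLRMT, into long precursors. The tRNAs punctuate these precursors. Their excision by RNase P at the 5′ end and by ELAC2 at the 3′ end frees most of the rRNAs and mRNAs. Most of these RNAs are then polyadenylated, and none has introns. The mRNAs encode core subunits of the respiratory chain and of ATP synthase: ND genes belong to complex I (NADH dehydrogenase), CYTB to complex III, COX genes to complex IV (cytochrome c oxidase) and ATP genes to complex V. Of the 37 genes, 28 are encoded on the heavy strand and 9 on the light strand (ND6 and 8 tRNA genes).

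Neighbouring genes leave almost no space between them, which bears on how reads are counted. In the GENCODE 29 annotation of GRCh38, the reading frames of ATP8 and ATP6 share 46 bases and those of ND4L and ND4 share 7. Each pair is carried on 1 bicistronic mRNA, so reads of the shared bases belong to both genes. The stretches are shown on the heavy-gene sense strand with the shared bases in capitals, ATP8 to ATP6 at chrM:8507-8592 and ND4L to ND4 at chrM:10740-10786, because the members of each pair did not move equally.
ATP8-ATP6: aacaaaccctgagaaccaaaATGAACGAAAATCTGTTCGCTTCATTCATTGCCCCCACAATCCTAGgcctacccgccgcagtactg
ND4L-ND4: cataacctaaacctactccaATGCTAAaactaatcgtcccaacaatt
The tRNA results turn on the following 3 genes, shown 5′ to 3′ in the sense of the tRNA with the anticodon in capitals. TRNT, for threonine (chrM:15888-15953, heavy strand), and TRNP, for proline (chrM:15956-16023, light strand), are neighbours on opposite strands, and TRNE, for glutamate (chrM:14674-14742, light strand), lies between ND6 and CYTB.
TRNP: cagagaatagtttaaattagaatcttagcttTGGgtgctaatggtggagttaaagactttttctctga
TRNT: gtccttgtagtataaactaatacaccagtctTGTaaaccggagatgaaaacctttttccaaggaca
TRNE: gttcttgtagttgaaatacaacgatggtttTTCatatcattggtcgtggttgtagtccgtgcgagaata

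Most mitochondrial mRNAs were higher in the resistant line, and they did not rise together. Of 13 mRNAs, 11 rose, COX3 fell and COX1 did not pass the test, with a median log2 fold change of 0.90. Across all genes tested, 76.2% passed, 39.3% higher and 36.9% lower, with a median of 0.05. For 12 of the 13 mRNAs the 2 lines were fully separated, as were 80.3% of all genes tested. The mRNAs held 4.83%, 4.97% and 4.74% of all counts in resistant replicates 1 to 3, against 3.19%, 2.55% and 2.99% in control replicates 1 to 3. Every resistant library lay above every control library, and the mean share was 4.85% ± 0.116 in resistant and 2.91% ± 0.328 in control libraries (SD, n = 3 each). That difference of 1.94 percentage points was 1.03 with library sizes scaled by TMM. In bulk RNA, more mitochondrial genomes per cell and more RNA per genome cannot be told apart.

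**Figure D1:**
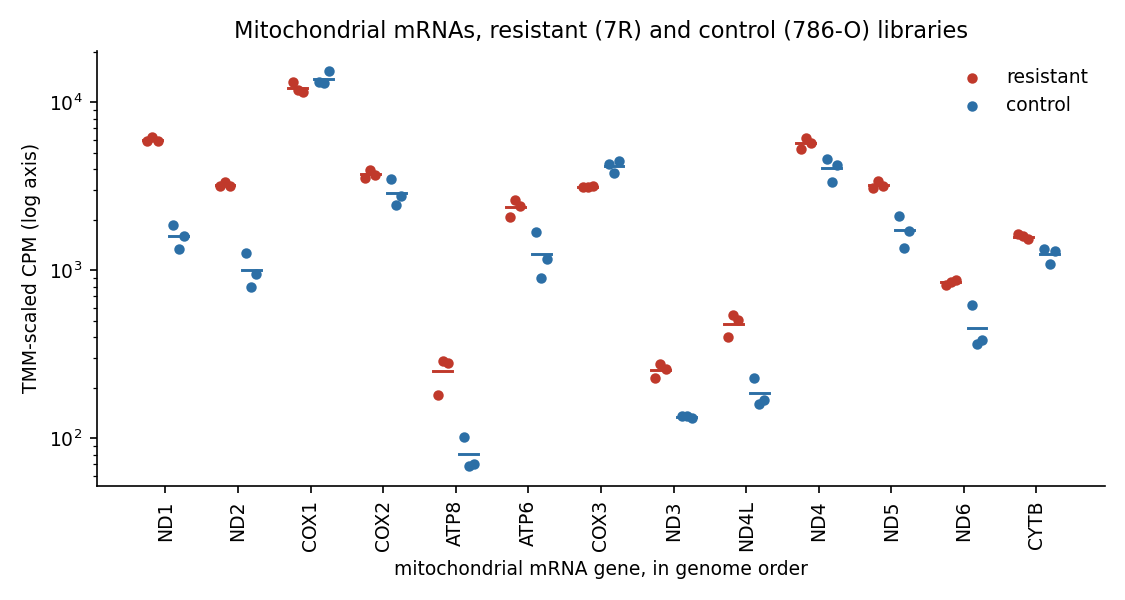
TMM-scaled CPM (log axis) of the 13 mitochondrial mRNA genes in genome order, with 1 point per library and a line at the mean of each group (3 resistant, 3 control). ND1 and ND2 show wide gaps between resistant and control libraries, COX3 lies lower in each resistant library, and the groups overlap for COX1.

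Fold change in these libraries moved with GC content, and the mRNA results stand beside that. The mRNAs have GC contents of 39.6% to 47.7%. Of 4938 other tested genes in that range, 62.3% were higher and 12.2% lower, with a median log2 fold change of 0.71. With a spline on GC content as offset in each library, 5 mRNAs were higher (ND1, ND2, ATP8, ND4L and ND5) and 2 lower (COX1 and COX3), against 33.7% and 32.9% of all genes in that fit. With GC content and length together, 4 were higher (ND1, ND2, ND4L and ND5) and 3 lower (COX1, COX3 and ND3), against 33.9% and 33.1% of all genes. The part of GC content in the other changes was not tested further. Scaling by library size alone moved the median of all genes to 0.39, with 47.2% higher and 28.4% lower, and COX3 then no longer passed (-0.07, adjusted p = 0.517).

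All 7 complex I mRNAs rose under TMM scaling, as did 39.3% of all genes and 62.3% of other genes in the GC range of the mRNAs. With the GC offset ND1, ND2, ND4L and ND5 were higher, while ND3, ND4 and ND6 were not called. ND1 and ND2 had the highest log2 fold changes of the 13 mRNAs under TMM scaling. ND1 (chrM:3307-4262), which encodes a core membrane subunit and is the mRNA gene nearest the rRNA genes, stood at 5858, 6190 and 5857 CPM in the resistant libraries, against 1853, 1349 and 1593 CPM in the control libraries. The 3 resistant libraries lay close together and far above all control libraries. ND1 rose by 1.90 ± 0.12 on the log2 scale (SE, n = 3 each, edgeR adjusted p = 1.33e-07), a 3.73-fold rise, and by 1.78 with the GC offset. Its GC content is 47.7%.

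ND2 (chrM:4470-5511), the next mRNA gene and another membrane subunit, had 3160, 3382 and 3193 CPM in the resistant libraries and 1272, 793 and 951 CPM in the control libraries. The groups did not overlap, and the spread was wider in the control line. ND2 rose by 1.69 ± 0.15 on the log2 scale (edgeR adjusted p = 9.97e-07, n = 3 each), and by 0.95 with the GC offset.

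ND5 (chrM:12337-14148), which forms the distal end of the membrane arm, averaged 3225 ± 178 CPM in the resistant and 1730 ± 377 CPM in the control libraries. It rose by 0.90 ± 0.14 (edgeR adjusted p = 9.37e-05), and by 0.43 with the GC offset. ND3 (chrM:10059-10404), a small membrane subunit, averaged 255 ± 23.9 CPM in resistant and 135 ± 2.01 CPM in control libraries and rose by 0.92 ± 0.10, but its direction turned to -0.18 with the GC offset. ND1, ND2, ND4L and ND5 were past the threshold and higher under each alternative that was run.

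ND4L and ND4, membrane subunits read from a shared mRNA, rose unequally. ND4L (chrM:10470-10766) had 399, 542 and 507 CPM in the resistant libraries and 230, 160 and 168 CPM in the control libraries. It rose by 1.38 ± 0.15 (edgeR adjusted p = 5.97e-06), by 0.64 with the GC offset and by 0.46 with GC content and length. ND4 (chrM:10760-12137) had 5256, 6138 and 5771 CPM in the resistant libraries and 4613, 3359 and 4246 CPM in the control libraries. It rose by 0.49 ± 0.12 (edgeR adjusted p = 0.00308) and stood at -0.08 with the GC offset. The ratio of ND4L to ND4 counts was 0.0759, 0.0883 and 0.0878 in the resistant libraries, against 0.0498, 0.0476 and 0.0396 in the control libraries, with no overlap.

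ND6 (chrM:14149-14673) is the only mRNA gene of the light strand and lies opposite the heavy-strand transcripts between ND5 and CYTB. It had 817, 854 and 872 CPM in the resistant libraries and 624, 363 and 383 CPM in the control libraries, a rise of 0.89 ± 0.17 (edgeR adjusted p = 5.21e-04). Whether the counting used strand is not stated, and reads of ND6 and of transcripts opposite it may be pooled. Per 1000 counts of the other 12 mRNAs, ND6 had 20.1 ± 0.833 counts in resistant and 14.1 ± 3.64 in control libraries (SD, n = 3 each). Per 1000 counts of the heavy-strand complex I mRNAs it had 44.9 ± 1.91 counts in resistant and 51.8 ± 8.81 in control libraries, and there the groups overlapped. Under the GC offset ND6 stood at 0.11 and did not pass (adjusted p = 0.462).

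The complex IV mRNAs did not move alike: COX3 fell, COX1 did not pass and COX2 rose. COX1 (chrM:5904-7445), the catalytic subunit of cytochrome c oxidase, had 13207, 11858 and 11586 CPM in the resistant libraries and 13155, 12966 and 15485 CPM in the control libraries. Resistant replicate 1 lay inside the control range. The log2 fold change of -0.18 ± 0.10 did not pass (edgeR adjusted p = 0.127) and turned to 0.16 when scaled by library size alone. Without resistant replicate 1 it was -0.25 (adjusted p = 0.0213), and with the GC offset -0.49 (adjusted p = 7.55e-04).

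COX3 (chrM:9207-9990), a core subunit without a redox centre, had 3146, 3127 and 3159 CPM in the resistant libraries and 4322, 3792 and 4453 CPM in the control libraries. The resistant libraries lay close together and below all control libraries. COX3 fell by 0.41 on the log2 scale (SE 0.10, edgeR adjusted p = 0.00182). COX2 (chrM:7586-8269), which binds the first copper centre on the path of electrons from cytochrome c, had 3534, 3961 and 3679 CPM in the resistant libraries and 3497, 2446 and 2782 CPM in the control libraries. The gap between the groups was narrow, since resistant replicate 1 stood just above control replicate 1. COX2 rose by 0.36 ± 0.13 (edgeR adjusted p = 0.0223). COX2 no longer passed when resistant replicate 2 (adjusted p = 0.0773), resistant replicate 3 (0.0518), control replicate 2 (0.197) or control replicate 3 (0.0994) was left out, nor with the GC offset (log2 fold change 0.050).

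CYTB (chrM:14747-15887), the cytochrome b of complex III, averaged 1587 ± 53.5 CPM in the resistant and 1247 ± 130 CPM in the control libraries. It rose by 0.35 ± 0.10 (edgeR adjusted p = 0.00832), but did not pass when control replicate 2 was left out (0.22, adjusted p = 0.127) or with the GC offset (0.049). Of the ATP synthase mRNAs, ATP8 (chrM:8366-8572) had 181, 291 and 280 CPM in the resistant libraries and 102, 68.7 and 70.4 CPM in the control libraries. ATP8 rose by 1.64 ± 0.19 (edgeR adjusted p = 8.83e-06), and by 0.49 with the GC offset.

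ATP6 (chrM:8527-9207), a subunit of the proton channel, had 2069, 2629 and 2429 CPM in the resistant libraries and 1685, 902 and 1174 CPM in the control libraries. It rose by 0.92 ± 0.19 (edgeR adjusted p = 6.87e-04), and with the GC offset by 0.35 (adjusted p = 0.0602). Although both are read from 1 mRNA, the ratio of ATP8 to ATP6 counts was 0.105 ± 0.0148 in resistant and 0.0656 ± 0.00912 in control libraries, with no overlap. Part of the ATP6 signal may be counted at MTATP6P1, a nuclear copy of the gene, which held 36.2 to 40.0 counts per 100 counts of ATP6 in the resistant and 26.5 to 33.5 in the control libraries. With the nuclear copies added to their parent genes, ATP6 rose by 1.02.

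**Figure D2:**
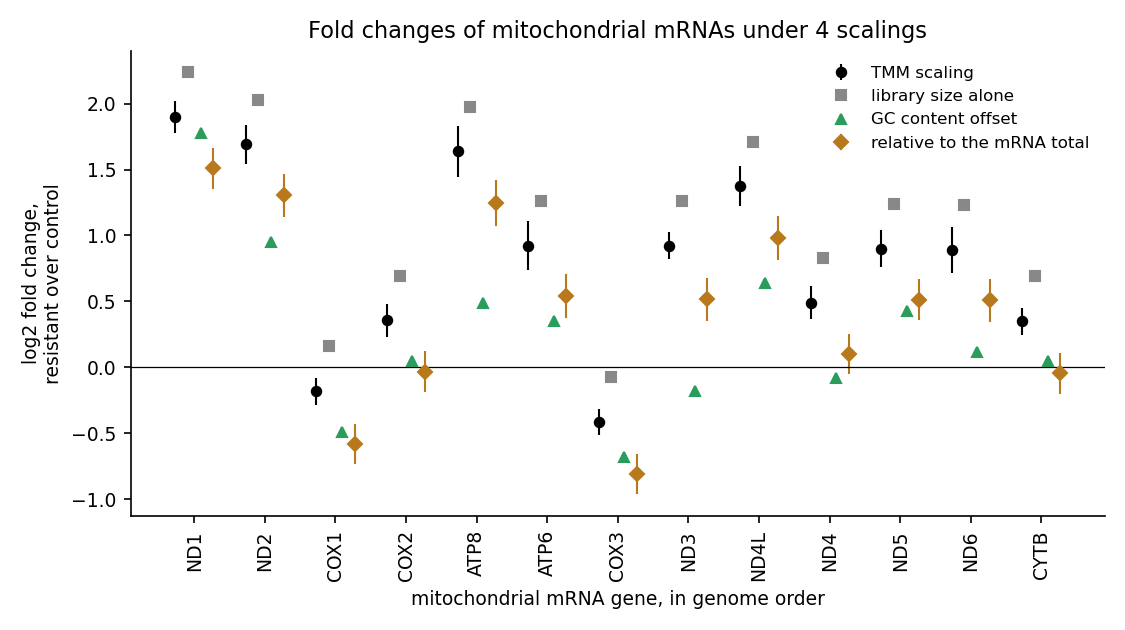
Log2 fold change of each mitochondrial mRNA under TMM scaling, library size alone, a GC content offset and relative to the summed mitochondrial mRNA counts (error bars: SE, for the TMM and mRNA-total fits). ND1, ND2, ND4L, ND5, ND6, ATP6 and ATP8 lie above 0 under all 4. COX3 lies below 0 under all 4, though near 0 with library size alone (-0.07). COX2, ND4 and CYTB lie near 0 with the GC offset and relative to the mRNA total. COX1 lies above 0 with library size alone.

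Whether the mRNAs moved unequally was tested by scaling each library to its summed counts of the 13 mRNAs, which sets aside the overall rise but makes no adjustment for GC content. In that fit 8 mRNAs were higher and 2 lower. Each total is made of these same mRNAs, so a rise of some lowers the others relative to it. Of all genes, 29.2% were higher and 45.2% lower (74.5% in all, median -0.35). Those shares still carry the overall rise of the mitochondrial mRNAs and are not a like comparison. ND1 rose relative to the total by 1.51 ± 0.16 on the log2 scale (edgeR adjusted p = 4.20e-13), ND2 by 1.30 ± 0.16, ATP8 by 1.25 ± 0.17 and ND4L by 0.98 ± 0.17. ATP6, ND3, ND5 and ND6 rose by 0.54, 0.52, 0.51 and 0.51. COX3 fell by 0.81 (SE 0.15, edgeR adjusted p = 4.05e-06) and COX1 by 0.58 (SE 0.15, adjusted p = 4.63e-04). COX2 (-0.03), ND4 (0.10) and CYTB (-0.05) did not pass. ND6 did not pass when control replicate 3 was left out (0.37, adjusted p = 0.0799).

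In shares of the mRNA counts, complex I mRNAs held 44.2%, 47.0% and 46.4% in the resistant libraries, against 31.0%, 26.1% and 26.7% in the control libraries. Complex IV mRNAs held 46.7%, 42.8% and 43.6% in the resistant libraries and 60.0%, 66.7% and 65.9% in the control libraries. Neither share overlapped between the lines, and the shares carry no adjustment for GC content. COX1 alone held 28.4% ± 2.29 in resistant and 42.5% ± 4.24 in control libraries (SD, n = 3 each). ND1 held 13.9% ± 0.113 in resistant and 4.87% ± 0.375 in control libraries, and ND2 held 7.54% in resistant and 3.05% in control libraries. Not every gene of a complex moved: ND4 held 13.3% in resistant and 12.4% in control libraries, with overlap. COX2 also overlapped, with 8.65% in resistant and 8.86% in control libraries. COX3 held 7.31% ± 0.214 in resistant and 12.8% ± 0.411 in control libraries. The ratio of ND1 to COX1 counts was 0.444, 0.522 and 0.506 in the resistant libraries, against 0.141, 0.104 and 0.103 in the control libraries.

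**Figure D3:**
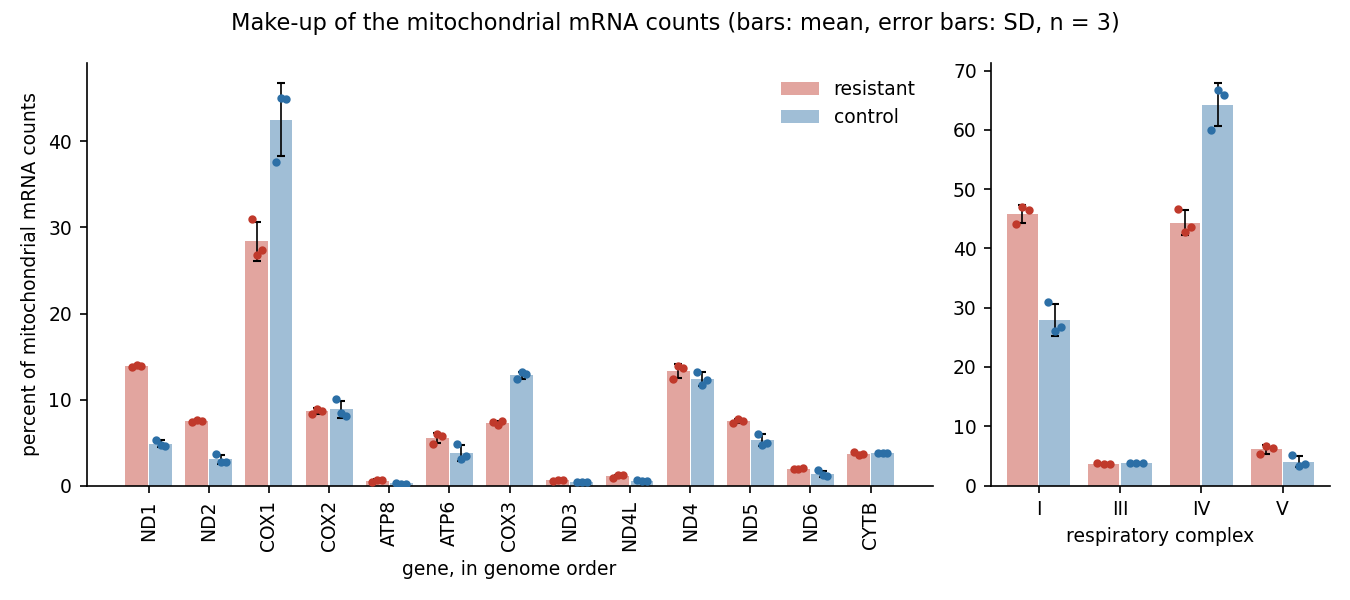
Percent of the mitochondrial mRNA counts held by each gene (left, in genome order) and by each respiratory complex (right), as bars from 0 with the mean, SD (n = 3) and the 3 libraries as points. Complex I averaged 45.9% in resistant and 27.9% in control libraries, and complex IV averaged 44.4% in resistant and 64.2% in control libraries.

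The order of the mRNAs by level per length also differed. In CPM per kilobase of gene, the resistant libraries averaged 7923 for COX1, 6243 for ND1, 5445 for COX2, 4152 for ND4 and 4010 for COX3. The control libraries averaged 8994 for COX1, 5343 for COX3, 4252 for COX2, 2956 for ND4 and 1841 for ATP6, with ND1 next at 1672. In the resistant line COX1, ND1 and COX2 were each separated from the next gene, while the ranges of ND4 and COX3 overlapped. In the control line COX1 was separated from COX3, the ranges of COX3 and COX2 overlapped, COX2 was separated from ND4, and the ranges of ND4 with ATP6 and of ATP6 with ND1 overlapped. ND3 was the lowest in resistant libraries at 738 CPM per kilobase. ND3 (389) and ATP8 (389) were the lowest in control libraries and overlapped. Across the 13 mRNAs, which share libraries, Spearman's rho of log2 fold change with the control CPM was -0.66 and with GC content -0.46, given as descriptions.

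Neither rRNA gene passed: with the filter on low counts 0 were called higher or lower by edgeR or DESeq2, and 0 at an unadjusted p under 0.05 by edgeR. Without that filter edgeR called RNR2 higher (1.20, adjusted p = 0.0102). RNR1 (chrM:648-1601), the 12S rRNA of the small mitochondrial ribosomal subunit, had 47.8, 16.7 and 95.6 CPM in the resistant libraries and 8.33, 88.3 and 15.3 CPM in the control libraries. RNR2 (chrM:1671-3229), the 16S rRNA of the large subunit, had 94.0, 33.4 and 209 CPM in the resistant libraries and 7.04, 121 and 15.6 CPM in the control libraries. The groups overlapped for both genes. The log2 fold changes were 0.52 ± 0.72 for RNR1 (edgeR adjusted p = 0.528) and 1.23 ± 0.83 for RNR2 (edgeR adjusted p = 0.195). With the GC offset they were 0.11 for RNR1 (edgeR adjusted p = 0.902) and 0.42 for RNR2 (edgeR adjusted p = 0.667). Control replicate 2 held 3833 and 5245 counts of RNR1 and RNR2, against 310 to 706 counts in the other control libraries. Without it, the log2 fold change was 2.11 for RNR1 (edgeR adjusted p = 0.00468) and 3.25 for RNR2 (edgeR adjusted p = 6.77e-04). Without resistant replicate 3, which held the most counts of both in its line, it was -0.21 for RNR1 (edgeR adjusted p = 0.814) and 0.41 for RNR2 (edgeR adjusted p = 0.679). Without control replicate 1 it was -0.0025 for RNR1 and 0.67 for RNR2, without control replicate 3 it was 0.10 for RNR1 and 0.77 for RNR2, and without resistant replicate 2 it was 0.94 for RNR1 and 1.66 for RNR2, none of them past the threshold. The rRNAs are the most abundant mitochondrial RNAs in cells, yet per kilobase RNR1 (56.0 CPM in resistant and 39.1 CPM in control libraries) and RNR2 (71.9 CPM in resistant and 30.7 CPM in control libraries) lay below every mRNA. The labels do not say whether rRNA was removed during library preparation.

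The ratio of the rRNAs to each other separated the lines although their levels did not. RNR2 had 1.97, 1.99 and 2.18 counts per count of RNR1 in the resistant libraries, against 0.845, 1.37 and 1.02 in the control libraries, with no overlap. Among all genes tested, 80.3% were separated by level, and the share among ratios was not computed. For this ratio, ND4L to ND4, ATP8 to ATP6 and TRNP to TRNT, which were chosen after their values were seen, a two-sided exact permutation test gave p = 0.10 each (adjusted p = 0.10 over 4 ratios), the smallest that 3 against 3 libraries allow. Any ratio that fully separates 3 against 3 libraries gives this p, so the test adds nothing to the separation.

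Few tRNA genes had enough counts to test. Of 22 tRNA genes, 10 had 0 counts in all libraries, 4 had a few counts and 8 passed the filter on low counts, so the 8 are not all tRNAs. By strand, 6 of the 8 light-strand tRNA genes but only 2 of the 14 heavy-strand ones passed. The tRNAs without counts were TRNN and TRNC on the light strand and TRNV, TRNL1, TRNK, TRNG, TRNR, TRNH, TRNS2 and TRNL2 on the heavy strand. Of those with few counts, TRNW (tryptophan) had 22 counts over the resistant and 3 over the control libraries, TRNM (methionine) 10 resistant and 0 control counts, TRND (aspartate) 6 resistant and 4 control counts, and TRNF (phenylalanine) 3 resistant and 0 control counts. Mature tRNAs are about the length of the genes, 59 to 75 bases, and how such short RNAs were retained in these libraries is not given in the sources used here.

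Of the 8 tested tRNAs, 3 rose (TRNP, TRNE and TRNI) and 0 fell by edgeR or DESeq2, with 0 lower at an unadjusted p under 0.05 by edgeR. The median log2 fold change was -0.0030, and the share of 37.5% higher lies close to the 39.3% of all genes. With the GC offset 0 tested tRNAs were higher and 2 were lower, TRNT (-1.51, edgeR adjusted p = 5.24e-05) and TRNA (alanine, -0.88, edgeR adjusted p = 0.00314). TRNP, whose sequence is printed above, had 15.7, 19.1 and 13.5 CPM in the resistant libraries and 5.58, 5.07 and 5.30 CPM in the control libraries. The groups did not overlap, and TRNP rose by 1.60 ± 0.16 on the log2 scale (edgeR adjusted p = 2.34e-06), with 0.29 and no call under the GC offset (adjusted p = 0.143).

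TRNT, its neighbour on the other strand, had 9.35, 7.87 and 9.93 CPM in the resistant libraries and 9.58, 9.63 and 13 CPM in the control libraries. The groups overlapped and TRNT did not pass (-0.25 ± 0.17, edgeR adjusted p = 0.196). The ratio of TRNP to TRNT counts was 1.68, 2.43 and 1.36 in the resistant libraries, against 0.583, 0.526 and 0.408 in the control libraries. TRNE had 3.26, 4.44 and 4.36 CPM in the resistant libraries and 1.45, 1.08 and 1.63 CPM in the control libraries, and rose by 1.53 ± 0.24 (edgeR adjusted p = 1.06e-04), with 0.33 and no call under the GC offset. TRNI (isoleucine, chrM:4263-4331) had 49, 51 and 27 counts in the resistant and 17, 18 and 22 in the control libraries and rose by 1.20 ± 0.40 (edgeR adjusted p = 0.0159). TRNI did not pass when resistant replicate 1 (adjusted p = 0.0536), resistant replicate 2 (0.0718) or control replicate 1 (0.0525) was left out, nor with the GC offset (0.063).

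TRNQ (glutamine), TRNA, TRNY (tyrosine) and TRNS1 (serine) did not pass, with log2 fold changes of -0.01, -0.19, 0.004 and -0.13. Together the tRNA genes gave 0.938 to 1.03 counts per 1000 mitochondrial mRNA counts in the resistant libraries and 0.904 to 0.971 in the control libraries, which overlap. The light-strand tRNA genes summed to 1259, 1547 and 1372 counts in the resistant libraries and 949, 776 and 901 in the deeper control libraries. The heavy-strand ones summed to 467, 401 and 463 counts in the resistant libraries and 442, 436 and 615 in the control libraries. TRNP alone gave 679, 819 and 575 of the light-strand counts in the resistant and 246, 220 and 240 in the control libraries. TRNT gave 404, 337 and 422 of the heavy-strand counts in the resistant and 422, 418 and 589 in the control libraries. The sums therefore do not show a change of all tRNAs of a strand.

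**Figure D4:**
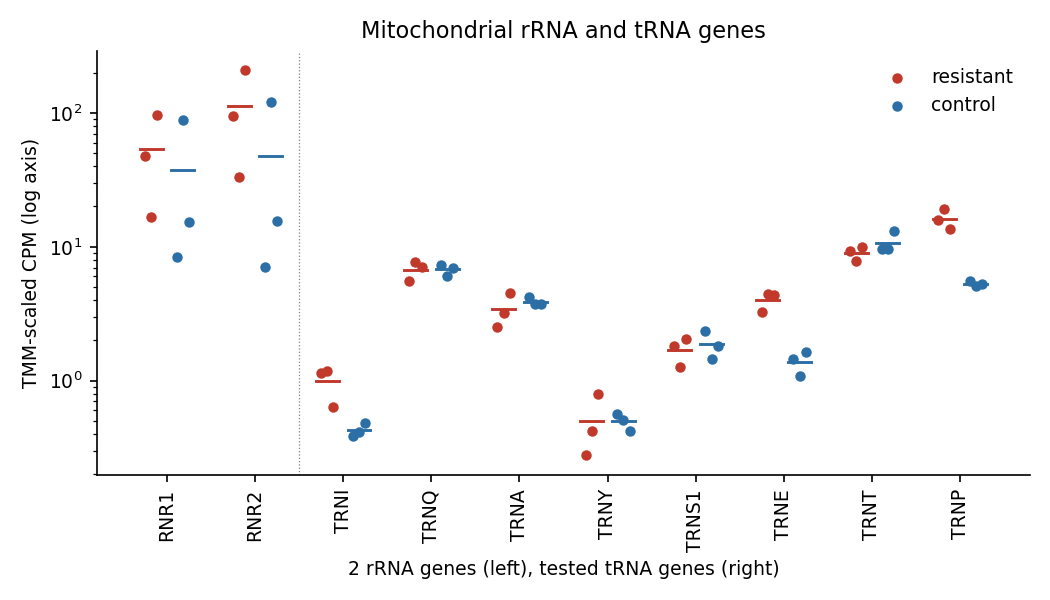
TMM-scaled CPM (log axis) of the 2 mitochondrial rRNA genes and the 8 tested tRNA genes in each library, with a line at the mean of each group. The rRNA points of each line spread over a wide range and overlap, while TRNP and TRNE lie higher in every resistant library.

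Nuclear genes that make, process and maintain these transcripts moved in both directions. Of 74 such genes, 72 were tested, and 31 (43.1%) were higher and 25 (34.7%) lower, near the 39.3% and 36.9% of all genes, with a median log2 fold change of 0.12. With the GC offset 21 (29.2%) were higher and 29 (40.3%) lower, against 33.7% and 32.9% of all genes. In the transcription machinery 6 of 10 rose and 2 fell, and with the GC offset 2 were higher and 1 lower. POLRMT had 82.4, 53.6 and 65.0 CPM in the resistant libraries and 162, 167 and 181 CPM in the control libraries, a log2 fold change of -1.34 ± 0.14 (edgeR adjusted p = 4.05e-06). It stood at 0.15 under the GC offset and did not pass (adjusted p = 0.0916).

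TFAM, which packages mitochondrial DNA and opens its promoters, averaged 67.8 ± 9.35 CPM in resistant and 28.1 ± 3.90 CPM in control libraries and rose by 1.27 ± 0.14 (edgeR adjusted p = 5.04e-06), with 0.14 and no call under the GC offset. TFB2M, the initiation factor that melts the promoter, rose by 0.84 ± 0.13 (-0.06 with the GC offset, no call), and TEFM, the elongation factor, did not pass (0.21 ± 0.25, edgeR adjusted p = 0.458). MTERF1, which binds within the TRNL1 gene downstream of the rRNAs, rose by 1.71 ± 0.19 (0.45 with the GC offset, still past the threshold). MTERF3 rose by 0.92 (-0.24 with the GC offset, no call) and MRPL12, a ribosomal protein that also binds POLRMT, had a log2 fold change of -1.62 (-0.18 with the GC offset, no call).

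Among genes of transcript stability and decay 4 of 6 rose and 0 fell by edgeR, against 39.3% and 36.9% of all genes. At an unadjusted p under 0.05 by edgeR, 0 were lower. Under the GC offset 3 were higher and 3 lower, against 33.7% and 32.9% of all genes. Whether these counts differ from those shares was not tested. LRPPRC, which binds mitochondrial mRNAs with SLIRP and keeps them stable, had 183, 228 and 214 CPM in the resistant libraries and 83.2, 71.6 and 67.4 CPM in the control libraries. It rose by 1.49 ± 0.12 (edgeR adjusted p = 5.86e-07), and by 0.91 with the GC offset. SLIRP averaged 26.5 ± 1.65 CPM in resistant and 27.4 ± 5.07 CPM in control libraries and did not pass (-0.05 ± 0.14, edgeR adjusted p = 0.774), though with the GC offset it was lower (-0.38, adjusted p = 0.0108). PNPT1, the polynucleotide phosphorylase of the RNA degradosome, rose by 1.57 ± 0.11 (1.74 with the GC offset), and REXO2, a nuclease of short RNA, by 0.54 ± 0.10 (0.36).

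Of 34 tested genes that process or modify the transcripts, 11 (32.4%) rose and 16 (47.1%) fell, against 39.3% and 36.9% of all genes. Under the GC offset 6 (17.6%) were higher and 18 (52.9%) lower, against 33.7% and 32.9% of all genes. TRNT1, the enzyme that adds CCA to tRNA 3′ ends, rose by 1.39 ± 0.14 (0.36 with the GC offset), FASTKD1, an RNA-binding protein, by 1.60 ± 0.13 (0.34), and NSUN3, which modifies tRNA-Met, by 1.5 ± 0.16 (0.25, no call). FASTK, which is required for ND6 mRNA, averaged 32.5 ± 4.73 CPM in resistant and 126 ± 13.9 CPM in control libraries, a log2 fold change of -1.96 ± 0.14 (edgeR adjusted p = 2.14e-07, -0.56 with the GC offset). DDX28 and ERAL1, which act in assembly of the mitochondrial ribosome, had -2.02 and -1.51 (-0.93 and -0.72 with the GC offset).

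Of 15 tested genes of mitochondrial DNA upkeep, 7 (46.7%) rose and 4 (26.7%) fell, against 39.3% and 36.9% of all genes. With the GC offset 7 (46.7%) were higher and 5 (33.3%) lower, against 33.7% and 32.9% of all genes. RRM2B, a ribonucleotide reductase subunit that supplies deoxynucleotides outside S phase, averaged 54.5 ± 11.3 CPM in resistant and 11.5 ± 0.925 CPM in control libraries, a rise of 2.24 ± 0.16 (edgeR adjusted p = 2.44e-07, 1.24 with the GC offset). SLC25A36, a pyrimidine nucleotide carrier, rose by 2.23 ± 0.14 (1.29) and POLG2, the accessory subunit of the mitochondrial DNA polymerase, by 1.37 ± 0.18 (1.09). POLG, its catalytic subunit, had -0.75 ± 0.11 (edgeR adjusted p = 4.88e-05) and turned to 0.42 with the GC offset. DGUOK, a deoxynucleoside kinase, had -0.64 (-0.48), and TOP3A, a topoisomerase, -0.95 (-0.15, no call). Of the 7 nuclear regulators, 3 (42.9%) rose and 3 (42.9%) fell, and with the GC offset 3 (42.9%) were higher and 2 (28.6%) lower. GABPA (1.41, 0.07 with the GC offset and no call), GABPB1 (0.79, 0.21) and the coactivator PPARGC1B (0.85, 2.02) were higher, and NRF1 (-0.82, -0.71), PPRC1 (-0.91, -0.04 and no call) and ESRRA (-0.79) were lower, with ESRRA turning to 0.64 under the GC offset.

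**Figure D5:**
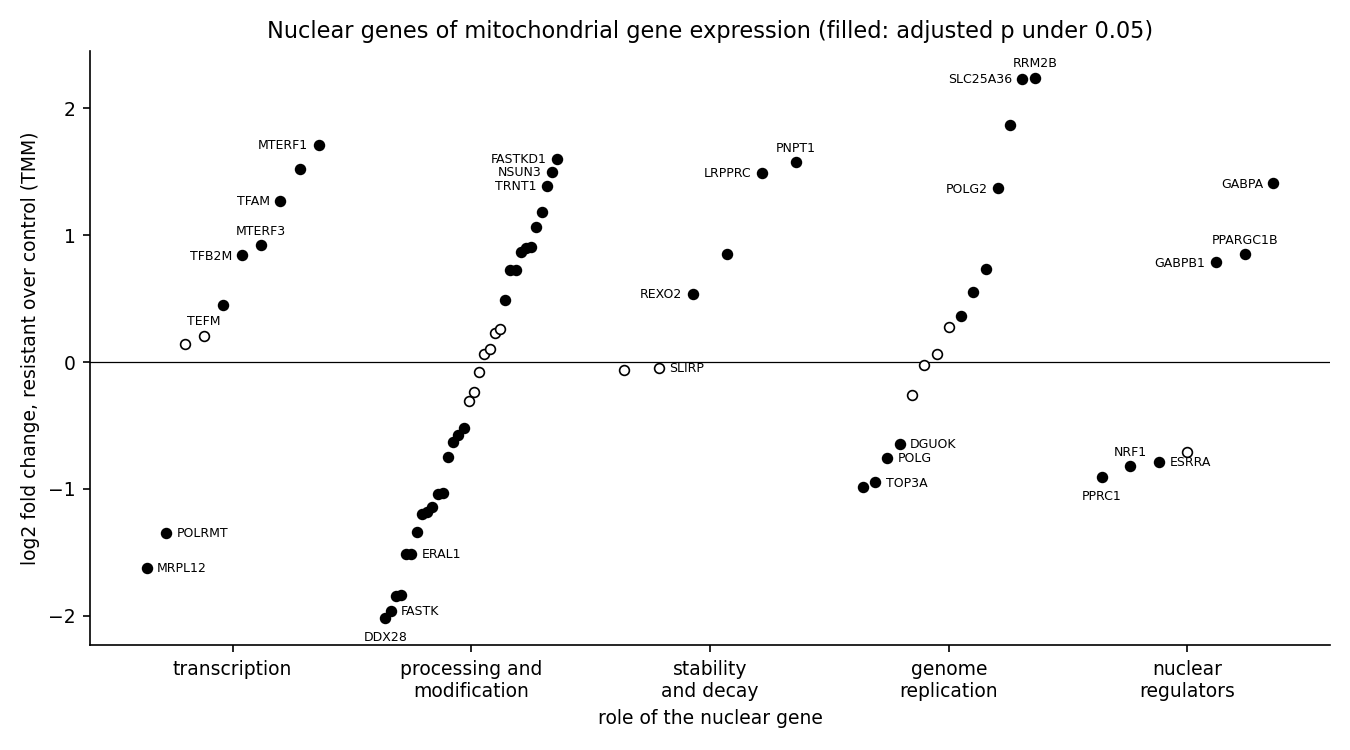
Log2 fold change (TMM scaling) of 72 tested nuclear genes of mitochondrial gene expression, ordered by value within each role, with filled points past an adjusted p of 0.05 and names for the genes given in the text. POLRMT and FASTK lie below 0, TFAM, LRPPRC and PNPT1 above 0, and TEFM and SLIRP near 0 are not called.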

How the data were processed

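Total RNA of 3 resistant and 3 control libraries was sequenced. The deposited table holds raw counts by gene symbol, which the authors made with tools that included HISAT2 2.0.4, per the submitters' processing notes. The counter, strand setting, build and annotation were not stated, so overlapping or opposite genes and nuclear copies may share reads. Each column name equalled a sample title (0 sample columns unmapped). Chi-square tests of counts between libraries of the same line gave 8.94 to 62.9 per degree of freedom, and the highest values, 60.1 and 62.9, involved resistant replicate 1. In the control line the pairs with replicate 1 gave 26.5 and 35.5, against 12.4 for replicates 2 and 3. Each library counted as 1 sample.

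Genes kept by filterByExpr (16642) were scaled by TMM (factors 1.12 to 1.14 in resistant and 0.867 to 0.913 in control libraries) and tested with edgeR 4.0.16 in R 4.3.3 (quasi-likelihood, no covariate, Benjamini-Hochberg at 0.05). SE was derived as |log2 fold change| divided by the root of F. DESeq2 1.42.0, other scalings and filters, and left-out libraries were alternatives. GENCODE 29 (GRCh38), which may differ from the authors' annotation, supplied coordinates, sequences and, for 85.5% of tested genes, GC content and length. Spline offsets were fitted on GC content (6 df) and log2 length (5 df). They would also remove a biological difference that follows GC content. Intervals and floors cover counting error only.

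The members and lists were chosen with earlier results of these data known. All mRNAs and rRNAs and the tested tRNAs are named. Of the nuclear list, POLRMT, TFAM, TFB2M, TEFM, LRPPRC, SLIRP, POLG and, for each role and direction, up to 3 called genes with the smallest p are named. The test was run on simulated counts with known changes beforehand.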

Additional observations from a re-analysis of the deposited data

How the results depend on the processing

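Of 193 recomputed values of 15 summary results, 176 stayed close to the reported value, meaning within 1.5 times for a count of genes and within the larger of the groups' SDs for a share or ratio. For 2 of them that SD is wide. The rRNA share difference, 0.0111 with all libraries, moved by more than 1.5 times without resistant replicate 2 (0.0176) or 3 (0.00334), and the difference in the tRNA to mRNA count ratio, 0.0475 per 1000, without resistant replicate 1 (0.0764) or 2 (0.0315) or control replicate 1 (0.0253). With the GC offset 5 mRNAs were higher and 2 lower, and 0 tRNAs higher and 2 lower. With GC content and length 4 mRNAs were higher and 3 lower, and 0 tRNAs higher and 2 lower. With library size alone 0 mRNAs were lower. Without a filter 1 rRNA was higher. With all rows that match the symbol pattern, chosen after seeing the data, 1 tRNA row was lower, since that set holds the nuclear gene TRNP1. With TMM effective library sizes the mRNA share differed by 1.03 and the tRNA share by 0.00119 percentage points, against 1.94 and 0.00207 of raw counts. The tRNA to mRNA difference was -0.163 without TRNP, and the ND6 difference -6.85 per 1000 heavy-strand complex I counts. The cause of these moves was not tested.

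Leaving out 1 library gave 9 to 11 mRNAs higher and 1 to 2 lower (2 without resistant replicate 1), 0 to 2 rRNAs higher (2 without control replicate 2), 2 to 3 tRNAs higher, 7 to 8 mRNAs higher and 2 lower relative to the mRNA total, and 30 to 32 nuclear genes higher and 25 to 28 lower. The mRNA share difference was 1.76 to 2.08, the rRNA one 0.00334 to 0.0176 and the tRNA one 0.00193 to 0.00222 percentage points. The tRNA to mRNA difference was 0.0253 to 0.0764 and the ND6 one 4.63 to 8.09.

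Directions turned as follows (log2 fold change). With library size alone: COX1 0.16, TRNQ 0.33, TRNA 0.15, TRNS1 0.21, TRNT 0.10 and SLIRP 0.29. With upper-quartile factors: TRNQ 0.053 and SLIRP 0.018. With at least 1 CPM in 3 libraries: TRNQ 0.037. With the GC offset: ND3 -0.18, ND4 -0.078, TRNY -0.83, POLRMT 0.15, TFB2M -0.055, TEFM -0.67, MTERF3 -0.24, POLG 0.42 and ESRRA 0.64. With GC content and length: COX2 -0.055, ND3 -0.35, ND6 -0.032, TRNY -0.90, POLRMT 0.081, TEFM -0.52, MTERF3 -0.15, POLG 0.34 and ESRRA 0.72. TRNY was -8.3e-04 with DESeq2 size factors, -0.021 without a filter, -4.5e-04 with DESeq2 and -0.094 with the replicate block. Leaving out 1 library gave ranges that crossed 0 for RNR1 (-0.21 without resistant replicate 3 to 2.11 without control replicate 2, and -0.0025 without control replicate 1), TRNQ (-0.14 without control replicate 2 to 0.104 without resistant replicate 1), TRNY (-0.51 without resistant replicate 3 to 0.28 without resistant replicate 1), TRNS1 (-0.33 without control replicate 2 to 0.041 without resistant replicate 2), TEFM (-1.1e-05 without resistant replicate 1 to 0.32 without resistant replicate 3), SLIRP (-0.22 without control replicate 3 to 0.021 without control replicate 1) and COX2 relative to the total (-0.097 without control replicate 3 to 0.062 without control replicate 1).

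Deviations of same-numbered libraries had correlations of -0.13, -0.0132 and -0.0581, and those of differently numbered libraries ranged from -0.0972 to 0.134. With 3 libraries per line, these values cannot decide whether the numbers pair libraries. With the replicate block, the counts were 11 mRNAs higher and 1 lower, 0 rRNAs, 3 tRNAs higher, 8 and 2 relative to the total, and 31 and 25 nuclear genes. Low counts kept 14 tRNA genes from being tested.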

Other observations

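Rows of nuclear copies of mitochondrial genes, the MTRNR2L rows included, held 40147 to 49194 counts in the resistant and 15954 to 24182 counts in the control libraries. That is 2.18 to 2.72 counts per 100 mitochondrial mRNA counts in the resistant and 1.20 to 1.57 in the control libraries, with no overlap. Most lay in MTATP6P1 (32348 to 41294 resistant, 13106 to 19679 control). MTND2P28 held 4.11 to 4.45 counts per 100 counts of ND2 in the resistant and 6.28 to 7.10 in the control libraries, the opposite order to MTATP6P1 and ATP6. MTCO1P12 held 0.0695 to 0.0768 counts per 100 counts of COX1 in the resistant and 0.0679 to 0.0833 in the control libraries, which overlap.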
